A study of Mus musculus with 16 samples.

Results

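Expression of 10 genes of the oligodendrocyte precursor lineage was followed through 16 mouse brain tumours: the transcription factors Sox10, Sox8, Olig1, Olig2, Sox5, Sox6 and Nkx2-2, and the cell surface proteins Cspg4, Gpr17 and Ptprz1. They were chosen by name as a lineage group, with earlier results of these data known, so counts over them are descriptions. All 10 were found among the 26466 genes of the deposited table, with reads in all 16 libraries. Oligodendrocyte precursors are the dividing glial cells that give rise to the myelinating cells of the brain, and they are marked by the surface proteoglycan NG2 (the product of Cspg4) and the receptor Pdgfra. In development Olig1 and Olig2 set up the lineage, Sox10 holds its identity and later switches on myelin genes together with its close relative Sox8, and Sox5 and Sox6 keep precursors from maturing too early. Many mouse and human gliomas express such genes.

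The tumours were mouse glioblastomas grown after transplantation, of the kinds Type 1 and Type 2, and their RNA was sequenced with 1 library per tumour. Each kind had tumours labelled TAM depleted and Control, where TAM stands for tumour-associated macrophage, a class that takes in microglia and macrophages from the blood. Of the Type 1 tumours 5 were Control and 3 TAM depleted, and of the Type 2 tumours 4 were Control and another 4 TAM depleted. In earlier mouse work under the same names, Type 1 tumours were started in neural stem cells and Type 2 tumours in oligodendrocyte precursors. A short sample name, that of Type 2 Control 4, holds the letters NG2 without saying what they refer to. Otherwise the labels here state neither the cell of origin nor the strain, alleles, age or sex of the animals or how TAMs were depleted. Nothing ties a tumour to an animal or a donor tumour, so the p-values reflect sample-to-sample spread, which may be partly technical. In bulk tumour RNA fewer cells of a type and less RNA per cell cannot be told apart.

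Levels are given as normalized counts, which are reads scaled by the authors with a factor for each library. The factor did not follow depth alone. In Type 2 Control 1, with 4.21 M reads, 836 Sox10 reads became 2988 normalized counts. In Type 2 Control 3, with 6.94 M reads, 3782 became 3367. Depth ranged from 4.21 to 18.3 M reads per library, and the libraries fell into 2 technical sets. A set of 9 held 2666 to 8480 reads per M reads on olfactory and vomeronasal receptor genes, which belong to sensory neurons of the nose, and 4.21 to 9.16 M reads. The other 7 held 95 to 779 such reads per M reads and 13.1 to 18.3 M reads. The predicted gene Gm10800 alone took 13.8% to 58.2% of the reads in the first set and 0.0491% to 2.03% in the second. All 5 Type 1 Control libraries were in the high-background set and all 3 Type 1 TAM depleted libraries in the low-background set, so that in Type 1 depletion and background cannot be told apart. In Type 2 each arm was split evenly, with Control 1 and 3 and TAM depleted 3 and 4 in the high-background set. The lowest member count in any library was 18 reads, for Sox8 in Type 2 Control 1. Per kilobase of exon, Sox8 (20.6) and Nkx2-2 (24.9) in that library and Cspg4 (9.35) and Gpr17 (7.26) in Type 1 Control 4 lay below the median receptor gene of the same library (25.5 and 9.95), and these 4 values are not told apart from background. Since the cut is a median, a value above it need not be above background. Among others, Olig1 (46.3) and Olig2 (50.9) in Type 2 Control 1 were not far above it. So were Gpr17 (9.73) and Sox6 (13.0) in Type 1 Control 5, where the median was 7.99.

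Sequence just upstream of the gene starts was taken for Cspg4 and Sox6, which differed between the tumour kinds, and for Olig2 and Sox8, which did not pass the test. The RefSeq promoter table (GRCm38.p6) held 7 of the 10 members, and Sox10, Olig1 and Gpr17 were not among them. Each stretch below is printed 5′ to 3′ on the gene's own strand and ends on the base before the gene's start in GENCODE, which for Sox8 is also the RefSeq start. For Olig2, Cspg4 and Sox6 the RefSeq start lies further downstream. Capitals mark the motifs ACAAAG and ACAATG, which Sox proteins bind, and CAGATG and CAGCTG, E-box forms bound by basic helix-loop-helix proteins such as Olig2, on either strand.
Cspg4, chr9:56864854-56865032, plus strand: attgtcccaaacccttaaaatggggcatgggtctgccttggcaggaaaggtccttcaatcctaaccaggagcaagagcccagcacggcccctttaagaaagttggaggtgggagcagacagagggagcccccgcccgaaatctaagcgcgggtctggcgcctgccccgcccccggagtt
Sox6, chr7:116038797-116038994, minus strand: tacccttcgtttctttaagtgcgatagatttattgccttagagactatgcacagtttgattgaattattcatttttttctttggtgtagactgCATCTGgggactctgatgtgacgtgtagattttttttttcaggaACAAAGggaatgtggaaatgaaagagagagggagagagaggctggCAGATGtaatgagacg
Olig2, chr16:91225300-91225456, plus strand: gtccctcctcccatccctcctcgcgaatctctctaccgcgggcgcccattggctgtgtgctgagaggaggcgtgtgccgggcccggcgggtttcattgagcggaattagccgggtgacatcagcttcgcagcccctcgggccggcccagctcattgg
Sox8, chr17:25570687-25570936, minus strand: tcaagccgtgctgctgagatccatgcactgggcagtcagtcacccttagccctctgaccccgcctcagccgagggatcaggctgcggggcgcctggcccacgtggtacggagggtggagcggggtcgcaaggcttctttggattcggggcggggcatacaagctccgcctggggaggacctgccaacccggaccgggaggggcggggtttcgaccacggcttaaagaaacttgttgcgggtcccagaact
The Sox6 stretch held 1 ACAAAG and 2 CAGATG motifs, and the other 3 stretches held none of the 4 motifs, although the full Olig2 window of 300 bases, which runs past the stretch, held 1 ACAATG. Among 32851 RefSeq promoter windows of 300 bases, 18.7% held ACAAAG, 12.6% ACAATG, 17.2% CAGATG and 16.3% CAGCTG, so each is common, and these shares are for windows longer than the stretches shown. A match is a run of letters only, and Sox6 has other start sites in the same table.

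**Figure D1:**
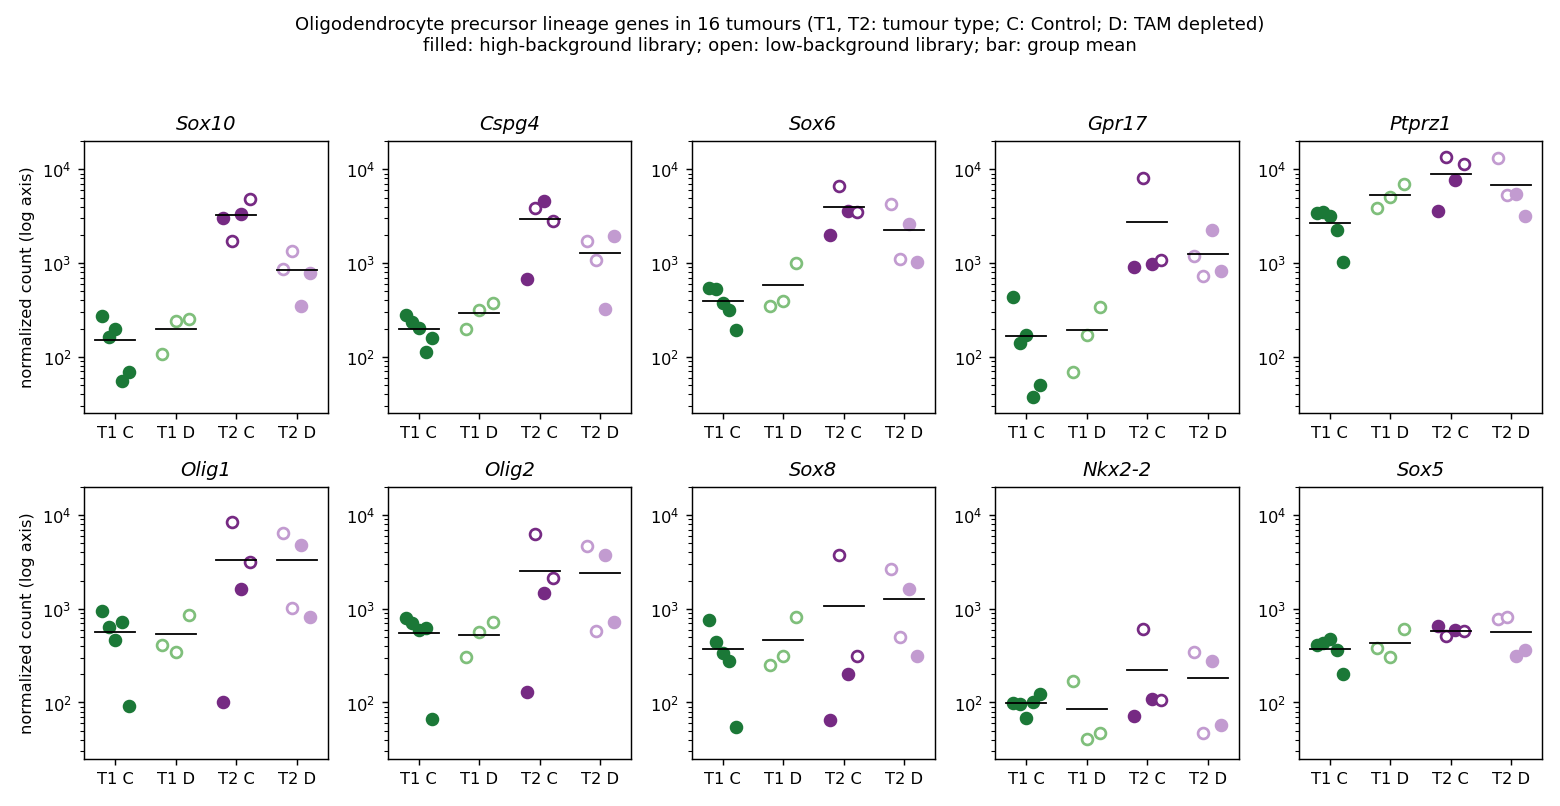
Normalized count (log axis) of each of the 10 genes in every tumour, with 1 point per library, filled for the high-background and open for the low-background set, and a bar at the group mean. T1 and T2 are the tumour kinds, C is Control and D is TAM depleted. Sox10, Cspg4, Sox6 and Gpr17 show every Type 2 Control point above every Type 1 Control point, while Olig1, Olig2 and Sox8 spread widely within Type 2 Control.

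The first comparison asks how control tumours of the 2 kinds differ. Sox10, Cspg4, Gpr17 and Sox6 were all higher in Type 2, from 9.77-fold for Sox6 to 23.6-fold for Sox10 in the fit, while the other 6 members were not past the threshold. Of 26463 genes tested, 3.09% passed in either direction, 2.28% higher and 0.816% lower in Type 2, against 4 of the 10 members, all higher. The split of 603 higher and 216 lower genes depended on the setting, with 1079 and 725 under quantile normalization and 626 and 446 under upper quartile scaling. Lower genes were the majority with limma-voom (902 higher, 1441 lower), library quality weights (2646, 3913), the background set as a term (482, 744) and high-background libraries alone (399, 658). The median log2 fold change was 1.70 over the 10 members and -0.23 over all genes tested, and all 10 were positive in the main fit. Sox8 was negative in 4 of the 12 alternatives, from -0.14 under quantile normalization to -1.30 in high-background libraries alone. Olig1 (-0.15) and Nkx2-2 (-0.13) were also negative in the high-background libraries. In 6 members every Type 2 Control library lay above every Type 1 Control library, which was so for 5.03% of all genes. All tests of this kind used limma-trend across all genes, with Benjamini-Hochberg adjustment and a threshold of 0.05.

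Sox10, the SoxE factor that defines the oligodendrocyte lineage from precursor to myelinating cell, lies at chr15:79154908-79165240 (GRCm38, minus strand). It stood at 2988, 1727, 3367 and 4847 normalized counts in Type 2 Control 1 to 4. In Type 1 Control 1 to 5 it stood at 274, 162, 196, 55.8 and 68.6. The lowest Type 2 Control value was thus several times the highest Type 1 Control value. Group means were 3232 ± 1284 (SD, n = 4) and 151 ± 91.0 (SD, n = 5), a log2 fold change of 4.56 with a standard error (SE) of 0.49 (limma-trend adjusted p = 9.31e-05). Within the high-background libraries alone, 2 Type 2 Control against 5 Type 1 Control, it was 4.63 (limma-trend adjusted p = 0.000501).

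Its close relative Sox8 (chr17:25565892-25570686, minus strand), which shares tasks with Sox10 in the lineage, did not follow it. Sox8 was at 64.3, 3715, 199 and 316 normalized counts in Type 2 Control 1 to 4. The Type 1 Control values were 756, 444, 341, 279 and 54.1. A single Type 2 Control tumour, number 2, was far above Type 1 and the other 3 lay within its range. The log2 fold change was 0.32 (SE 0.97, limma-trend adjusted p = 0.874, unadjusted 95% interval -1.73 to 2.37), and within the high-background libraries it was -1.30 (limma-trend adjusted p = 0.447).

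The SoxD pair Sox5 and Sox6, which lack an activation domain of their own and restrain SoxE targets in precursors, also parted. Sox6 (chr7:115470872-116038796, minus strand) was at 1987, 6659, 3614 and 3531 normalized counts in Type 2 Control 1 to 4. Type 1 Control 1 to 5 had 546, 531, 379, 318 and 193. No values overlapped, and the group means were 3948 ± 1956 (SD, n = 4) and 393 ± 149 (SD, n = 5), with a log2 fold change of 3.29 with SE 0.48 (limma-trend adjusted p = 0.000932). Sox5 (chr6:143828425-144781977, minus strand) was at 654, 509.7, 586 and 573 in Type 2 Control and at 414, 431, 475, 360.3 and 202 in Type 1 Control. These values did not overlap either, but the log2 fold change of Sox5 was only 0.68 (SE 0.33, limma-trend adjusted p = 0.394). The ratio of Sox6 to Sox5 counts ran from 3.04 to 13.1 in Type 2 Control tumours and from 0.797 to 1.32 in Type 1 Control tumours. Short genes overlap both loci, and this kit does not mark strand. Within Sox5 the antisense Sox5os3 reached at most 15.2% of the Sox5 count in a library and the same-strand Gm44068 reached 12.5%. Within Sox6 the antisense Gm45025 reached 7.84%.

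Cspg4, the NG2 proteoglycan of the precursor cell surface (chr9:56865033-56899870, plus strand), was at 683, 3853, 4593 and 2805 normalized counts in Type 2 Control 1 to 4. Type 1 Control 1 to 5 had 278, 234, 201, 112 and 159. Per kilobase of exon these Type 1 values were 9.35 to 23.3, where the median receptor gene was at 7.40 to 9.95, so they lay near background. Type 2 Control 1 was the lowest of its group and still above every Type 1 tumour of either arm. The means were 2983 ± 1700 (SD, n = 4) and 197 ± 64.6 (SD, n = 5), a log2 fold change of 3.68 with SE 0.56 (limma-trend adjusted p = 0.00116). Pericytes also carry NG2, and the 9 pericyte and mural cell markers had a median log2 fold change of 0.60, with none past the threshold. Their summed level ran from 1680.1 to 3675 normalized counts in Type 2 Control and from 1277 to 1768 in Type 1 Control libraries, and none of the 9 was at 0 in any library. The part of mural cells in the Cspg4 difference was not tested.

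Gpr17 (chr18:31942997-31949636, minus strand), a receptor that rises as precursors commit to differentiation, was at 919, 8005, 980.3 and 1073 normalized counts in Type 2 Control 1 to 4. Type 1 Control 1 to 5 had 433, 141, 171, 37.7 and 50.5. The groups did not overlap, and 1 tumour, Type 2 Control 2, stood far above the rest. The log2 fold change was 3.85 (SE 0.74, limma-trend adjusted p = 0.00689), with means of 2744 ± 3508 (SD, n = 4) and 167 ± 159 (SD, n = 5), and 3.03 within the high-background libraries (limma-trend adjusted p = 0.0337), where Type 2 Control 2 is not included. Gpr17 overlaps Lims2 on the opposite strand, so reads of the shared part cannot be assigned to either gene. Lims2, a focal adhesion adaptor also listed among precursor genes, was higher by a log2 fold change of 2.93 with SE 0.41 (limma-trend adjusted p = 0.000676) and reached at most 84% of the Gpr17 count in a library.

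Ptprz1, a receptor phosphatase of precursors and radial glia (chr6:22875502-23052916, plus strand), was at 3557, 13388, 7638 and 11435 normalized counts in Type 2 Control 1 to 4. Type 1 Control 1 to 5 had 3462, 3476, 3169, 2225 and 1021. The ranges came close without overlapping, and the log2 fold change of 1.72 (SE 0.49) had a limma-trend adjusted p of 0.0737. It was past the threshold without Type 2 Control 1 (log2 fold change 2.11, limma-trend adjusted p = 0.0209) and under 5 other settings, with limma-trend adjusted p = 0.0438 at a filter of 50 counts and 0.0381 with quantile normalization. Over the 12 alternatives its log2 fold change ran from 1.09 to 1.93 and its limma adjusted p from 0.00313 to 0.304. Leaving out a library gave limma-trend adjusted p of up to 0.197. None of 7 Ptprz1 ligands and partners, which include pleiotrophin (Ptn) and midkine (Mdk), was past the threshold.

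The basic helix-loop-helix factors Olig1 (chr16:91269772-91271933, plus strand) and Olig2 (chr16:91225457-91228677, plus strand) are neighbours on 1 chromosome. Olig1 was at 100.1, 8356, 1635 and 3168 normalized counts in Type 2 Control 1 to 4 and at 936, 632, 466, 724 and 92.0 in Type 1 Control 1 to 5. Olig2 was at 129, 6244, 1487 and 2142 in Type 2 Control and at 799, 698, 586, 626 and 66.8 in Type 1 Control. For both genes 3 of the 4 Type 2 Control tumours were above all Type 1 Control tumours and Type 2 Control 1 was below 4 of the 5. The log2 fold changes were 1.68 for Olig1 (SE 1.02, limma-trend adjusted p = 0.512) and 1.58 for Olig2 (SE 0.97, limma-trend adjusted p = 0.518). The antisense gene Gm15966 reached at most 42.9% of the Olig1 count in a library. Without Type 2 Control 1, Olig1 passed with a log2 fold change of 2.96 (limma-trend adjusted p = 0.0467). Its log2 fold change went down to 0.84 when another library was left out. Over the 12 alternatives it ran from -0.15, within the high-background libraries, to 2.27.

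Nkx2-2 (chr2:147177546-147194243, minus strand), a homeodomain factor that promotes differentiation of precursors, had the lowest counts. It was at 71.5, 601, 109 and 107 normalized counts in Type 2 Control and at 99.2, 96.2, 68.7, 101 and 125 in Type 1 Control, and again only Type 2 Control 2 stood out. The log2 fold change was 0.63 (SE 0.66, limma-trend adjusted p = 0.649). The antisense gene Nkx2-2os reached 140% of the Nkx2-2 count in a library and 6430503K07Rik reached 65%, so this level is uncertain.

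**Figure D2:**
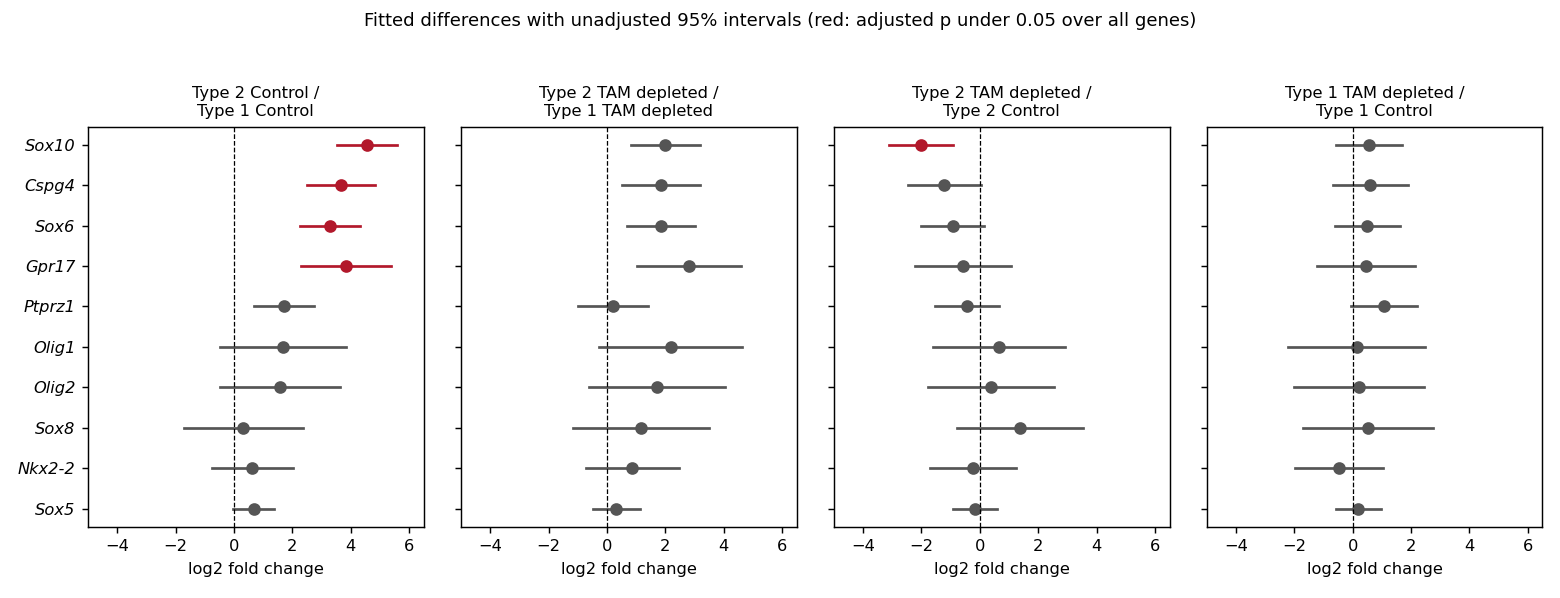
Fitted log2 fold change of each gene (points) with its unadjusted 95% interval (lines) in 4 comparisons, red where the adjusted p over all genes is under 0.05. Sox10, Cspg4, Sox6 and Gpr17 are red between the controls at 3.29 to 4.56, and only Sox10 is red for depletion in Type 2, at -2.01.

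Other genes known from precursors had positive differences in Type 2 controls as well. Of 16 listed, 5 passed the test, all higher, and all 16 had positive differences with a median log2 fold change of 1.73, also 16 of 16 under quantile and upper quartile scaling. These 5 included Lims2, the xylosyltransferase Xylt1 (log2 fold change 3.10, limma-trend adjusted p = 0.00232), Susd5 (3.91, limma-trend adjusted p = 0.00566) and Rlbp1 (2.95, limma-trend adjusted p = 0.00702). The growth factor receptor Pdgfra was the fifth, at 1945 ± 989 (SD, n = 4) against 333 ± 198 (SD, n = 5) normalized counts (log2 fold change 2.49, SE 0.56, limma-trend adjusted p = 0.0190).

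Genes of later stages were read as well. Among 14 genes of committed and newly formed oligodendrocytes only Itpr2, an intracellular calcium channel, passed (log2 fold change 1.75, limma-trend adjusted p = 0.00512). The list had 10 positive and 4 negative differences and a median of 0.66. Of 12 mature myelin genes 3 were higher past the threshold, with a list median of 0.41: the galactolipid enzyme Ugt8a (1.72, limma-trend adjusted p = 0.0259), Cnp (2.11, limma-trend adjusted p = 0.0291) and Cldn11 (2.80, limma-trend adjusted p = 0.0366). Differences were positive for 8 of the myelin genes and negative for 4. Of 9 genes that hold back oligodendrocyte differentiation 1, Lingo1, was lower (log2 fold change -2.17, limma-trend adjusted p = 0.0339). That list had 6 positive and 3 negative differences and a median of 0.19. The 12 neuron markers read below had a median of -2.06, and their part in the Lingo1 value was not tested. Whether the lists differ from each other was not tested.

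Genes of other lineages were read in the same fit. The 6 tested paralogues of the members (of 9 listed) had 4 positive and 2 negative differences and a median log2 fold change of 0.19. Among them only the SoxC factor Sox11 of immature neurons passed, lower in Type 2 controls (log2 fold change -3.18, limma-trend adjusted p = 0.0109). It ran from 2443 to 7633 normalized counts in Type 1 Control and from 189 to 1978 in Type 2 Control libraries. Of 10 proneural and early progenitor genes 2 were lower past the threshold, Dcx (log2 fold change -3.31, limma-trend adjusted p = 0.0322) and Dlx1 (-2.27, limma-trend adjusted p = 0.0333). That list had 2 positive and 8 negative differences and a median of -1.10. All 12 neuron markers had negative differences, 3 of them past the threshold, with summed levels of 3253 to 15074 normalized counts against 13163 to 31859.7 in Type 1 controls. All 14 TAM markers had positive differences with none past the threshold, and their sums ran from 3536.5 to 9808 against 1862 to 3618. Of 11 astrocyte markers 1 passed, S100b, which precursors also express (log2 fold change 2.71, limma-trend adjusted p = 0.00268). The astrocyte list as a whole had 4 positive and 7 negative differences and a median of -0.49. None of 8 endothelial markers or 12 proliferation genes passed, with medians of 0.46 and -0.28. No neuron or TAM marker was at 0 in any library, and their part in the members' differences was not tested.

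Schwann cells of peripheral nerve also need Sox10, so their markers were read beside it. Of 6 tested markers 2 were higher past the threshold in Type 2 controls, the neuregulin receptor Erbb3 (log2 fold change 3.99, SE 0.61, limma-trend adjusted p = 0.00122) and Pmp22 (2.25, limma-trend adjusted p = 0.00249). The oligodendrocyte lineage expresses Erbb3 as well. All 6 markers had positive differences, with a median log2 fold change of 1.16. Summed over the 6 markers the level ran from 1185 to 4116 in Type 2 Control against 264 to 462 normalized counts in Type 1 Control libraries, with none at 0 in any library.

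Between TAM depleted tumours of the 2 kinds, all 10 members again had positive differences with a median log2 fold change of 1.79, against 0.11 over all genes, but none passed, and only 0.185% of genes did. Gpr17 had the largest difference, 2.81 (SE 0.84, limma-trend adjusted p = 0.206), from 68.5, 171 and 339 normalized counts in Type 1 TAM depleted 1 to 3 to 1175, 719, 2259 and 819.5 in Type 2 TAM depleted 1 to 4. Sox10 differed by 2.00 (SE 0.56, limma-trend adjusted p = 0.180) and Sox6 by 1.86 (SE 0.55, limma-trend adjusted p = 0.203). For Sox10, Sox6 and Gpr17 the libraries did not overlap, which was so in this direction for 3.30% of all genes. Ptprz1 was at 3883, 5026 and 7041 in Type 1 and at 13242, 5364, 5493 and 3208 in Type 2, overlapping widely (log2 fold change 0.20, limma-trend adjusted p = 0.898). Within the low-background libraries, 2 against 3, Sox10 was at 2.52, Gpr17 at 2.53, Cspg4 at 2.26 and Sox6 at 2.06, none past the threshold. Of the 16 other precursor genes all had positive differences and 1, Lims2, passed (2.65, limma-trend adjusted p = 0.024).

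TAM depletion in Type 2 went with a lower Sox10 and with no other change past the threshold among the members. Sox10 was at 855, 1351, 351 and 779 normalized counts in TAM depleted 1 to 4 against 2988, 1727, 3367 and 4847 in Control 1 to 4, without overlap. The means were 834 ± 410 (SD, n = 4) and 3232 ± 1284 (SD, n = 4), 4.04-fold lower in the fit, a log2 fold change of -2.01 with SE 0.52 (limma-trend adjusted p = 0.0424). In this comparison 3.61% of genes passed, 2.37% higher and 1.24% lower (627 and 329 genes, or 674 and 618 under upper quartile scaling), against 1 of the 10 members, and 3.39% of genes had lower libraries without overlap. The adjusted p lay between 0.0164 and 0.349 over the alternatives and above 0.05 when any 1 of 8 libraries was left out: Type 1 Control 2, Type 2 Control 1, 3 or 4, or any of the 4 Type 2 TAM depleted libraries. The log2 fold change was -2.60 within the high-background and -1.43 within the low-background libraries (limma-trend adjusted p = 0.0610 and 0.349, 2 against 2 each).

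The surface marker Cspg4 was at 1738, 1085, 321 and 1929 normalized counts in Type 2 TAM depleted tumours, overlapping its controls, with a log2 fold change of -1.21 with SE 0.59 (limma-trend adjusted p = 0.290). For Sox6 the values were 4255, 1101, 2624 and 1029, with a log2 fold change of -0.93 with SE 0.51 (limma-trend adjusted p = 0.353). Ptprz1 (-0.43), Gpr17 (-0.58), Nkx2-2 (-0.24) and Sox5 (-0.16) had smaller negative differences, none past the threshold. Sox8 went the other way, at 2661, 499.9, 1604 and 315 normalized counts in TAM depleted 1 to 4, with a log2 fold change of 1.36 with SE 1.02 (limma-trend adjusted p = 0.513). Olig1 (6486, 1025, 4808 and 819.5) and Olig2 (4638, 575, 3782 and 728) were both high in TAM depleted 1 and 3 and low in 2 and 4. Their log2 fold changes were 0.65 (SE 1.07) and 0.38 (SE 1.02), with limma-trend adjusted p of 0.767 and 0.859. The direction for the Olig genes differed between background sets, with log2 fold changes of 2.29 and 1.92 within the high-background and -1.0 and -1.16 within the low-background libraries. Across the 10 members the median was -0.33, against -0.21 over all genes, with 3 positive and 7 negative.

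Markers of other cell types were read in the same comparison. Of 12 neuron markers 7 rose, with a list median of 3.52 and summed levels of 23948 to 95505 normalized counts in TAM depleted against 3253 to 15074 in Control libraries. Of 14 TAM markers 3 fell, Adgre1, Ptprc and Fcer1g, with a median of -1.27 and sums of 1794 to 3794 against 3536.5 to 9808. Proliferation genes had 11 of 12 negative differences and a median of -0.75, with none past the threshold. The astrocyte marker Aqp4 rose (log2 fold change 2.04, limma-trend adjusted p = 0.0387), 1 of 11 on its list. What these shifts contribute to the Sox10 value was not tested.

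Erbb3, read here as a Schwann cell marker, fell together with Sox10, by 2.65 on the log2 scale (SE 0.64, limma-trend adjusted p = 0.0330), from 865, 757, 2838 and 3298 to 225, 884, 64.7 and 299.9 normalized counts. The 6 tested Schwann cell markers had 1 positive and 5 negative differences and a median of -0.98. Of the 9 brakes on differentiation Lingo1 alone passed, with a log2 fold change of 3.18 (limma-trend adjusted p = 0.0114). That list's median was 0.42, with 8 positive and 1 negative. The neuron markers had a median of 3.52, and their part in the Lingo1 value was not tested. None of the 16 other precursor genes passed, with 11 negative and a median of -0.35, Susd5 being lowest at -2.68 (limma-trend adjusted p = 0.0615). None of the 12 myelin genes passed, with 11 positive and a median of 1.12, and Mobp was highest at 4.18 (limma-trend adjusted p = 0.0604).

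In Type 1, none of the 10 members passed the test for TAM depletion, nor did any of the 26463 genes (0%) by limma-trend, while 8019 genes but no member had an unadjusted p under 0.05. Ptprz1 had the largest difference, from 2671 ± 1054 (SD, n = 5) to 5317 ± 1599 (SD, n = 3) normalized counts. All 3 TAM depleted values, 3883, 5026 and 7041, were above the highest control value of 3476, and the log2 fold change was 1.08 (SE 0.54, limma-trend adjusted p = 0.181). Libraries did not overlap for 39.1% of all genes here, and for 10.5% with the depleted libraries higher, so that 1 of 10 members is close to that share. Sox10 was at 108, 238 and 252 in TAM depleted 1 to 3 against 55.8 to 274 in controls (log2 fold change 0.55, limma-trend adjusted p = 0.468). Cspg4 was at 199.9, 313 and 373 and Gpr17 at 68.5, 171 and 339, both overlapping their controls. Sox6 was at 350.4, 398 and 1006, Sox5 at 378, 307 and 602, and Sox8 at 254, 315 and 808. For all 5 of these genes tumour 3 was the highest of its group. Olig1 was at 408, 341 and 862 and Olig2 at 304, 558 and 719.5, within or near the control range, while Nkx2-2, at 168, 41.2 and 47.0, was highest in tumour 1. The remaining differences lay between -0.47 for Nkx2-2 and 0.60 for Cspg4, 9 positive and 1 negative in all, but 5 members were positive under quantile normalization and 6 under upper quartile scaling. The 14 TAM markers had a median of -0.36 with none past the threshold and sums of 1569.7 to 3434 in TAM depleted against 1862 to 3618 normalized counts in Control libraries. Upper quartile scaling moved the median of all genes from -0.06 to -0.44 and that of the members from 0.48 to 0.08.

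The difference between the depletion responses of the 2 kinds was tested directly and no member passed, nor did any gene (0%) by limma-trend, with 2666 genes at an unadjusted p under 0.05. Sox10 had the largest difference among members, -2.56 (SE 0.75, limma-trend adjusted p = 0.455, unadjusted 95% interval -4.13 to -0.99), followed by Cspg4 at -1.82 (SE 0.84, limma-trend adjusted p = 0.495). The Sox10 responses of 0.55 in Type 1 and -2.01 in Type 2 are therefore not shown to differ. The comparisons share groups, Type 2 Control standing in both the comparison of controls and that of Type 2 depletion, so that its high Sox10 values enter both.

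To compare members with each other, counts were divided by exon length in kilobases. In Type 1 Control tumours Olig1 (264 ± 146 per kilobase), Olig2 (219 ± 112) and Ptprz1 (188 ± 74.0) led (SD, n = 5 each), and Cspg4 was lowest at 16.5 ± 5.41. Sox10, at 49.6 ± 29.8 per kilobase, came after Sox8 at 120 ± 82.3, and Sox8 was above Sox10 in 4 of 5 libraries. Type 2 Control tumours had Olig1 (1533 ± 1659), Sox10 (1059 ± 421) and Olig2 (988 ± 1041) on top (SD, n = 4 each) and Sox5 last at 40.4 ± 4.12. The order of these 3 is not fixed, since Olig1 was above Sox10 in 1 of 4 libraries and Sox10 above Olig2 in 3. With TAM depletion Sox8 was above Sox10 in all 3 Type 1 libraries and in 2 of 4 Type 2 libraries, and mean Sox10 was at 65.4 ± 26.1 (SD, n = 3) per kilobase in Type 1 and 273 ± 134.5 (SD, n = 4) in Type 2. Ptprz1 led in Type 1 TAM depleted tumours at 373 ± 112 (SD, n = 3), above Olig1 in all 3 libraries.

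Tumours of 1 group differed widely in some members. Among Type 2 Control tumours Olig1 spanned 83.5-fold, Sox8 57.7-fold and Olig2 48.5-fold from the lowest to the highest library, while Sox10 spanned 2.81-fold and Sox5 1.28-fold. Control 1 was lowest for 8 of the 10 members in that group and Control 2 highest for 7. In Type 1, Control 1 was highest of its group for 7 members and TAM depleted 3 for 9. Type 2 Control 1 was also the shallowest library, with 4.21 M reads and the highest background, and Type 2 Control 2 had 14.7 M reads and a low background. The part of depth and background in these spreads was not tested.

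**Figure D3:**
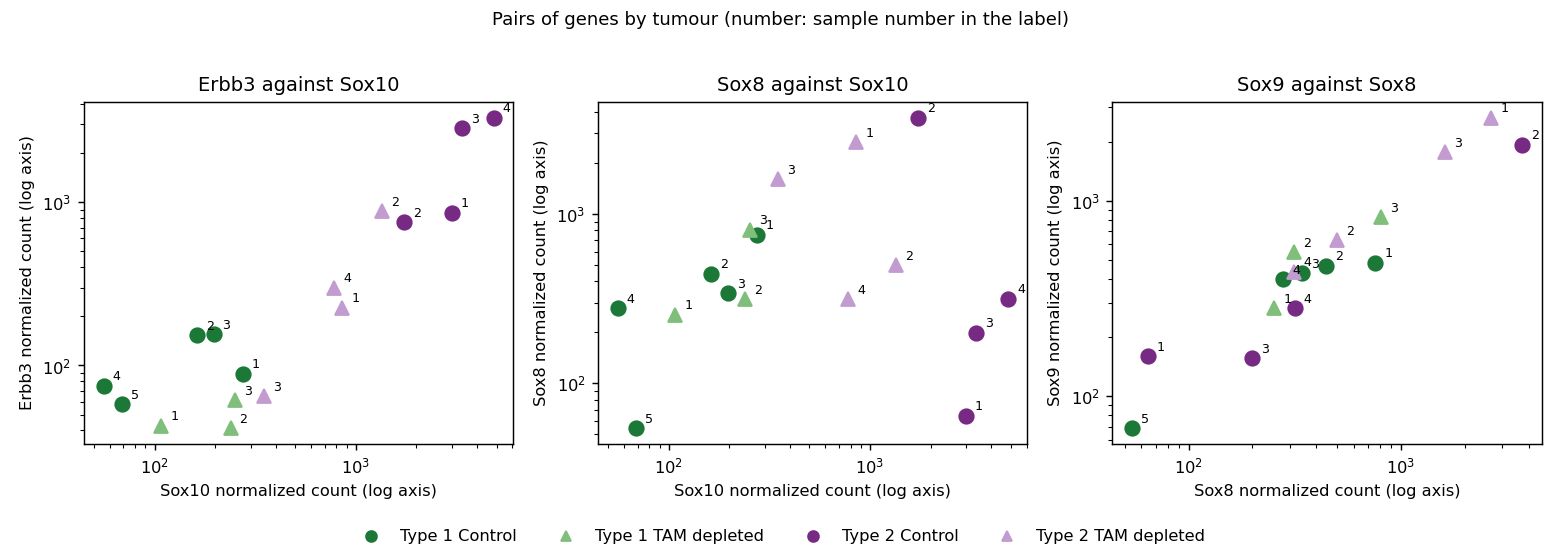
Normalized counts of 3 gene pairs in each tumour, on log axes, numbered by sample, with circles for Control, triangles for TAM depleted, green for Type 1 and purple for Type 2. Erbb3 rises with Sox10 across Type 2 tumours, Sox9 rises with Sox8 in both kinds, and Sox8 plotted against Sox10 shows Type 2 Control 1, 3 and 4 at the right with Sox10 at 2988 or more and Sox8 at 316 or less.

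The balance of the SoxE genes Sox8 and Sox10 differed between Type 2 tumours. The ratio of Sox8 to Sox10 counts was 0.0215, 2.15, 0.0592 and 0.0652 in Type 2 Control 1 to 4, and 3.11, 0.370, 4.58 and 0.404 in TAM depleted 1 to 4. Type 2 Control 2 and TAM depleted 1 and 3 thus had more Sox8 than Sox10, as did 7 of the 8 Type 1 tumours, whose ratios ran from 0.789 to 5.00. Sox9, the third SoxE gene and a factor of neural stem cells and astrocytes, was at 161, 1929, 157 and 283 normalized counts in Type 2 Control 1 to 4 and at 2655, 628, 1765 and 433 in TAM depleted 1 to 4. It was thus high in Control 2 and TAM depleted 1 and 3, as Olig2 and Nkx2-2 were. Its counts went with those of Sox8 in both kinds (Pearson r of log2 values 0.938 in Type 1 and 0.955 in Type 2, n = 8 libraries each). Hes5, a Notch target that restrains differentiation, also went with Sox8 (0.97 and 0.94).

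Erbb3 had r = 0.96 with Sox10 over the 8 Type 2 libraries and r = 0.162 over the 8 Type 1 libraries, where it ran from 41.1 to 155 normalized counts. Pdgfra had r = 0.915 with Sox10 in Type 1 and r = 0.384 in Type 2. Among the members Olig1 and Olig2 had ratios of 0.612 to 1.78 over all 16 tumours and r = 0.98. In Type 1 tumours Sox10 went with Gpr17 (0.96), Cspg4 (0.92), Ptprz1 (0.756), Sox6 (0.739) and Sox8 (0.73), and Nkx2-2 was negative with every other member (-0.632 to -0.251). In Type 2 tumours Sox10 had r = 0.587 with Cspg4 but -0.555 with Sox8, -0.31 with Olig2 and -0.17 with Gpr17, while Olig1, Olig2, Sox8, Nkx2-2 and Ptprz1 went together (r = 0.64 to 0.99). These correlations describe 8 libraries of each kind that share depth and background differences, mix both arms and carry no test.

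**Figure D4:**
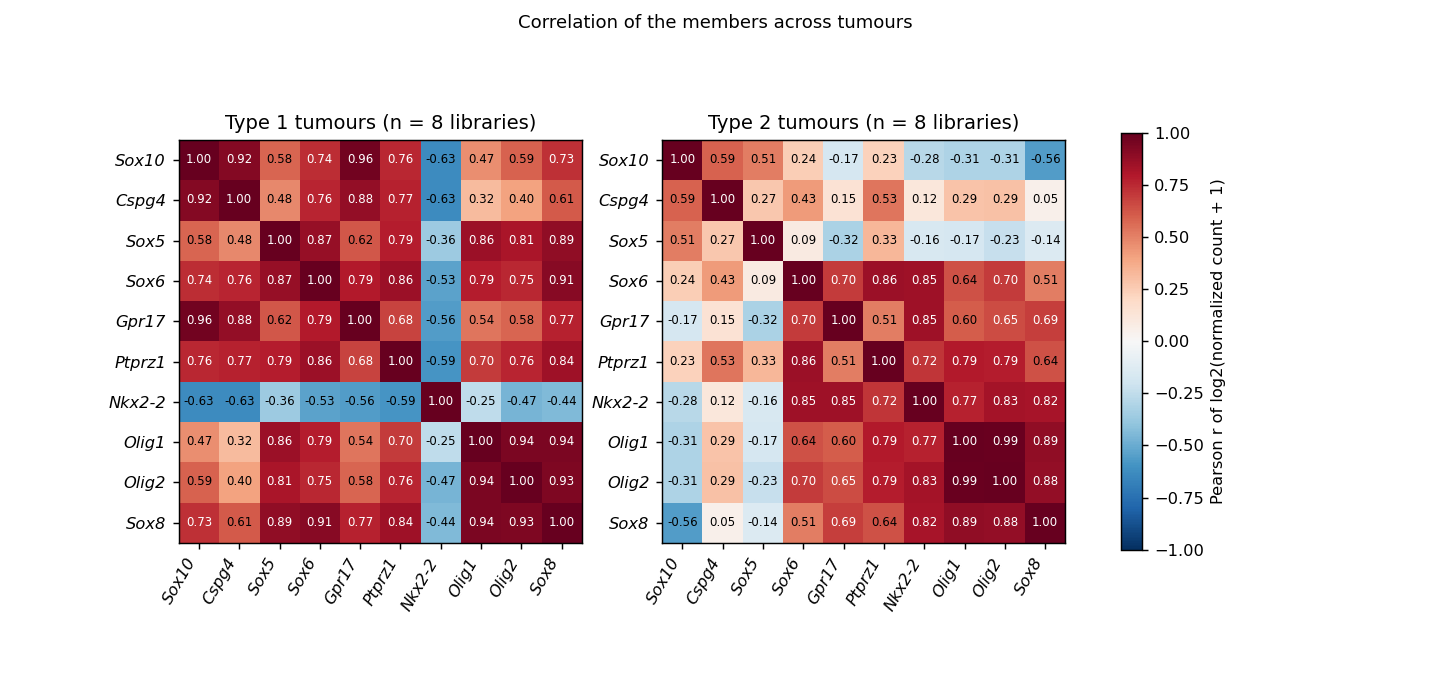
Pearson correlation of log2(normalized count + 1) between members over the 8 Type 1 and the 8 Type 2 libraries, red for positive and blue for negative. Sox10 is positive with all members but Nkx2-2 in Type 1, and in Type 2 its values with Olig1, Olig2, Sox8, Nkx2-2 and Gpr17 lie between -0.555 and -0.168.

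Over all 16 libraries and 12881 genes with a mean of 50 normalized counts or more, the patterns most like that of Sox10 were those of Metrn (r = 0.964), Fkbp9 (0.963) and Cyp2j6 (0.962). Olig2 was nearest to Olig1 (0.980), C1ql1 (0.948) and Pcdh15 (0.946), the last 2 being known precursor genes. Gpr17 was nearest to Bcas1os1 (0.941), Stx2 (0.933) and its overlapping neighbour Lims2 (0.927). For Ptprz1 they were Qki (0.955), an RNA-binding protein of myelinating glia, Efs (0.955) and the collagen receptor Ddr1 (0.949).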

How the data were processed

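RNA came from TRIzol lysates purified on miRNeasy Micro columns, and cDNA libraries were prepared with a SMART-Seq v4 kit for low RNA input, per the labels' protocols; the kit does not mark strand. STAR 2.7.8a, the GRCm38 build and DESeq2 are named in the submitters' processing notes. For the counting tool and annotation, nothing is given in the sources used here. Values per gene were deposited on a log2 scale by the authors, for all 16 libraries together (26466 genes) and for each tumour kind. The columns of a table share 1 lowest value, as variance-stabilized values do, and inverting that scale gave normalized counts. Divided by the step of its library, each such count came out whole (100% of values, tolerance 0.05 reads, largest deviation 1.4e-07). The planned test had assumed linear normalized counts.

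The test was limma-trend (limma 3.58.1, R 4.3.3) on log2(normalized count + 1), for the 26463 genes that reached 10 normalized counts in 3 or more libraries, all 10 members among them. It had 4 group means, 12 residual degrees of freedom, 2-sided p-values and Benjamini-Hochberg adjustment over all genes. Fold changes on this scale understate those of low genes. No negative binomial count model was run, and limma-voom on the recovered reads was the alternative based on counts.

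The members and 14 gene lists were chosen with earlier results of these data known, so counts over them are descriptions. Of the listed genes, 4 were not analysed here. The text names all members, from a list up to 4 genes with the smallest p in a comparison, Pdgfra, and for 4 members the 3 genes most alike over 16 libraries. Sox9, Hes5 and genes overlapping members were added after their values were seen. Positions and exon lengths are from GENCODE vM21 (GRCm38, 1-based). Alternatives were other pseudocounts (0.5, 8), other filters (none, 50), quantile or upper quartile scaling, library quality weights, limma-voom, a replicate block, a background term, fits on the compared libraries alone and leaving out each library. In Type 1 the background sets coincide with the arms, so the background term was estimated from Type 2 libraries alone and carried over to Type 1. For depletion, the fits on the compared libraries alone used the table deposited for that tumour kind. Those tables have their own scaling, with 29708 genes tested in Type 1 and 25873 in Type 2. Fits within 1 background set were added after seeing the data, except for the members in Type 2 depletion.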

Additional observations from a re-analysis of the deposited data

Results flagged for a closer look

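Olig2 in Type 1 Control was lowest in tumour 5, at 66.8 normalized counts, far below the other 4 control tumours of that kind, which lay between 586 and 799. Gpr17 in Type 2 Control was highest in tumour 2, at 8005 normalized counts, against 919 to 1073 in the other 3. In both cases the distance of 1 library from its group was large for the group's range (Dixon's test at the 95% level, on log2 values). Of 30 groups of 4 or 5 libraries tested, 2 were picked out in this way, and chance picks out about 1 in 20. The cause of either value was not tested.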

How the results depend on the processing

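The 4 members higher in Type 2 than in Type 1 controls, Sox10, Cspg4, Sox6 and Gpr17, passed under each of the 12 alternatives run and when any 1 library was left out. The lower Sox10 of TAM depleted Type 2 tumours kept its direction in all alternatives and lost its call in 5 of them, so that 0 members passed: library quality weights (limma adjusted p = 0.0812), only the libraries compared (0.118), the replicate block (0.0932) and the high-background (0.0610) or low-background (0.349) libraries alone. Depth limits Sox8, with 18 reads in Type 2 Control 1.

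Members past the threshold became 2 in Type 1 depletion with only the libraries compared (Cspg4 0.93, limma-trend adjusted p = 0.0347, and Ptprz1 1.41, 0.0146). That fit used the separately scaled Type 1 table, so the scaling and the genes tested changed as well as the libraries. Sox10, for example, moved from 0.55 to 0.87. Between the controls they became 7 with library quality weights and 5, with Ptprz1 added, at a filter of 50 and with quantile normalization, upper quartile scaling or limma-voom. Between the TAM depleted tumours they became 1 with library quality weights. When a library was left out they ran from 0 to 1 for Type 2 depletion and from 4 to 6 between the controls.

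Genes past the threshold for Type 1 depletion (0, with 8019 at an unadjusted p under 0.05) became 13721 with library quality weights and 16381 with only the libraries compared, and 0 to 2 when a library was left out (2 without Type 2 Control 1 or TAM depleted 4). For Type 2 depletion (956) they became 2635 with the background set as a term, 436 with weights, 573 in high-background libraries, 0 in low-background libraries (3669 at an unadjusted p under 0.05), 0 with only the libraries compared (3194) and 297 with the replicate block, and 100 to 1259 when a library was left out. They were 100 without Type 2 Control 3, 285 and 302 without TAM depleted 2 and 1, and 605, 629 and 635 without Type 2 Control 1 and Type 1 Control 2 and 4. Between the controls (819) they became 6559 with weights, 2343 with limma-voom, 1804 with quantile normalization and 347 with the block, and 510 to 1141 without a library (510 without Type 1 Control 4, 524 without Type 2 Control 3). Between the TAM depleted groups (49) they became 215, 429, 24, 18, 31 and 16 with the background term, weights, low-background libraries, only the libraries compared, quantile normalization and the block, and 12 to 234 without a library (12, 15 and 234 without Type 1 TAM depleted 1, 2 and 3, and 77 without Type 2 Control 1). For the difference of responses (0) they became 166 with the background term, 748 with weights and 1 with the block. The 166 rest on a term estimated from Type 2 libraries alone. Higher and lower genes for Type 2 depletion were 653 and 595 with limma-voom and 130 and 306 with weights.

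The block rests on sample numbers that do not pair the tumours: deviations of same-numbered samples correlated at -0.16 to 0.37 in 3 Type 1 pairs and -0.67 to 0.50 in 4 Type 2 pairs.

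Log2 fold changes that reversed, none past the threshold, were in Type 1 depletion Olig1 (-0.41 quantile, -0.26 upper quartile, -0.39 weights, -0.46 block, -1.89 background term), Olig2 (-0.30, -0.17, -0.45, -0.50, -1.29) and Sox5 (-0.31, -0.21, -0.0215, -0.10, -0.33) in that order of settings. There too were Sox6 (-0.0368 quantile, -0.0117 weights, -0.13 background term), Sox8 and Gpr17 (-0.17 and -0.21 weights, -0.33 and -0.16 block, -1.46 and -0.073 background term), Nkx2-2 (0.10 weights), Cspg4 (-0.24 background term) and Ptprz1 (-0.0466 background term). In Type 2 depletion they were Olig1 (-1.0), Olig2 (-1.16) and Sox5 (0.56) in low-background libraries, Nkx2-2 (0.33 weights, 0.51 high-background) and Gpr17 (0.52 high-background). Between the controls they were Olig1 (-0.15) and Nkx2-2 (-0.13) in high-background libraries and Sox8 (-0.14 quantile, -0.27 block, -0.66 background term, -1.30 high-background). For the difference of responses they were Sox5 (0.17 background term) and Gpr17 (0.14 weights). Outside Type 2 depletion, the background-term values rest on a term estimated from Type 2 libraries alone, so they do not separate depletion from background in Type 1.

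Leaving out a library reversed some of these and gave these ranges. For Type 1 depletion they were Olig1 -0.44 to 0.40, Olig2 -0.44 to 0.58, Sox5 -0.0859 to 0.40, Sox8 -0.0743 to 0.87 and Gpr17 -0.088 to 1.06. For Type 2 depletion they were Olig1 -0.63 to 1.49, Olig2 -0.72 to 1.14, Sox5 -0.37 to 0.0797, Nkx2-2 -0.71 to 0.43 and Gpr17 -0.91 to 0.18. Between the controls they were Sox8 -0.81 to 1.13 and Nkx2-2 -0.0326 to 0.99, and between the TAM depleted groups Ptprz1 -0.18 to 0.50. For the difference of responses they were Olig1 -0.77 to 1.36, Olig2 -0.94 to 0.92 and Nkx2-2 -0.24 to 0.90. The cause of these shifts was not tested.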
